A study of Homo sapiens with 2 samples.

Results

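The HOX genes and the antisense RNAs of their 4 clusters were read at the level of total mRNA and of ribosome-bound mRNA in Caco-2, an established line from a human colorectal adenocarcinoma whose cells can take on features of enterocytes. Members were every gene symbol that starts with HOX and a cluster letter, A to D. They were 48 of the 23709 records in the table, namely 39 protein genes, 8 antisense records and the readthrough record HOXA10-HOXA9. The mRNA library was made from polyadenylated RNA of total RNA, and the RNC-mRNA library from polyadenylated RNA recovered with ribosome-nascent chain complexes. Both came from untreated cells of the same line in the same medium, with 1 library each, and the labels do not say whether 1 culture served for both. With 1 library a group there is no replicate check, so differences carry no SD and no p-value and describe this pair of libraries alone. Recovered depth was 9640364 reads for the mRNA library and 11083302 for the RNC-mRNA library.

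HOX proteins are homeodomain transcription factors that set position along the head-to-tail axis. In each cluster the genes lie in the order of their paralog numbers, low numbers acting towards the head and high numbers towards the tail, and the hindgut lies in the domain of the high numbers. The clusters also hold antisense RNAs and the microRNA genes of the miR-10 and miR-196 families. In the adult intestine the related factor CDX2 is a main regulator of epithelial identity.

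Sequence ties some members to one another, and where exons are shared this bears on how their values are read. The first tie is miR-196, encoded inside the HOXA, HOXB and HOXC clusters and known to cut HOXB8 mRNA. The mature sequences from RefSeq (GRCh38.p14) are given with the seed, bases 2 to 8, in capitals.
miR-196a-5p: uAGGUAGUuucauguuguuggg
miR-196b-5p: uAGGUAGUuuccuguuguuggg
The HOXB8 mRNA holds a near-perfect partner in its 3′ UTR, taken here from GENCODE release 29. The capital marks the base that departs from the perfect complement of miR-196a-5p.
HOXB8 site: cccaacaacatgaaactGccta
This site equals the complement at 21 of 22 bases, and of 17430 protein-coding records with a 3′ UTR only this 1 held a site with as many. The capital falls opposite the seed, so HOXB8 held no exact seed match. Exact matches to the seed (ACTACCT, the mRNA strand alone) were in the 3′ UTR of 8 of 38 HOX records, against 6.08% of all records, at median UTR lengths of 830 and 835 bases. HOXA7 held 4 matches, HOXA9 and HOXC8 2 each, and HOXA5, HOXB1, HOXB6, HOXB7 and HOXB13 1 each. The HOXA7 and HOXC8 sites with the most bases equal to the complement, 15 and 12 of 22, show the seed match in capitals.
HOXA7 site: cctactcccctaaaACTACCTa
HOXC8 site: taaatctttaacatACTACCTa
A match is a description of these letters and not a measured site. The microRNA records themselves were at or near 0: MIR196A1, MIR196A2, MIR10A, MIR10B and MIR615 were listed at 0 in both libraries. MIR196B was at 0 in mRNA and at 1.07 RPKM in RNC-mRNA, from as few as 1 read. Libraries of long poly(A) RNA do not measure mature microRNAs.

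The second tie is a start that HOXC4 and HOXC5 share in RefSeq. The 250 bases before it are at chr12:54016638-54016887 on the plus strand of GRCh38.p14, shown with CG pairs in capitals.
HOXC4 and HOXC5 promoter: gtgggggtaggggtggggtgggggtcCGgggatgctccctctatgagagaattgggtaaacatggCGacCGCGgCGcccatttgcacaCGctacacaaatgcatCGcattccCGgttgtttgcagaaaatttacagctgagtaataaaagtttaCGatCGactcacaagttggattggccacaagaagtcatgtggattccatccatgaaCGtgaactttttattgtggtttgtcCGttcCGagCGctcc
The window holds 14 CG pairs, and 44.7% of 34943 promoter windows of the same length hold as many. It has no match on either strand to TGATTNAT, a joint PBX and HOX motif that 2.49% of all windows hold. It has none to the TATA box TATAAA either, which 10.8% of all windows hold. In GENCODE, 22% of the bases of the HOXC5 record also lie in HOXC4 and HOXC6 exons on the same strand. Reads from these bases cannot be assigned to 1 gene.

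Values are RPKM, read counts scaled to transcript length and library total, so levels can be compared between genes. A gene is called expressed at a mean of at least 1 RPKM over both libraries, and 29 of the 48 members were: 24 of 39 protein genes and 5 of 8 antisense records. By the same rule 13402 of all 23709 records were expressed. These were 11940 of 18646 coding (NM) records and 1462 of 5063 non-coding (NR) records. HOXA6 passed through the RNC-mRNA library (0.905 and 1.35 RPKM, mRNA library first here and in every pair that follows) and HOXD4 through the mRNA library (2.72 and 0.835 RPKM). The expressed members rested on at least 7 to 328 reads in the mRNA library and 6 to 397 in the RNC-mRNA library. Intervals printed for single genes are exact Clopper-Pearson 95% intervals from these reads, and they cover counting error only.

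HOX mRNA was found mainly in the B, C and A clusters, and the D cluster was nearly silent. The 10 HOXB protein genes summed to 46.5 RPKM in mRNA and 56.4 RPKM in RNC-mRNA. The 9 HOXC genes summed to 40.01 and 39.6 RPKM, and the 11 HOXA genes to 31.0 and 41.2 RPKM. The 9 HOXD genes summed to 4.48 and 2.53 RPKM, which is 3.67% and 1.81% of all HOX protein mRNA. All 9 HOXC genes were expressed, as were 7 of 11 HOXA, 7 of 10 HOXB and 1 of 9 HOXD genes.

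**Figure D1:**
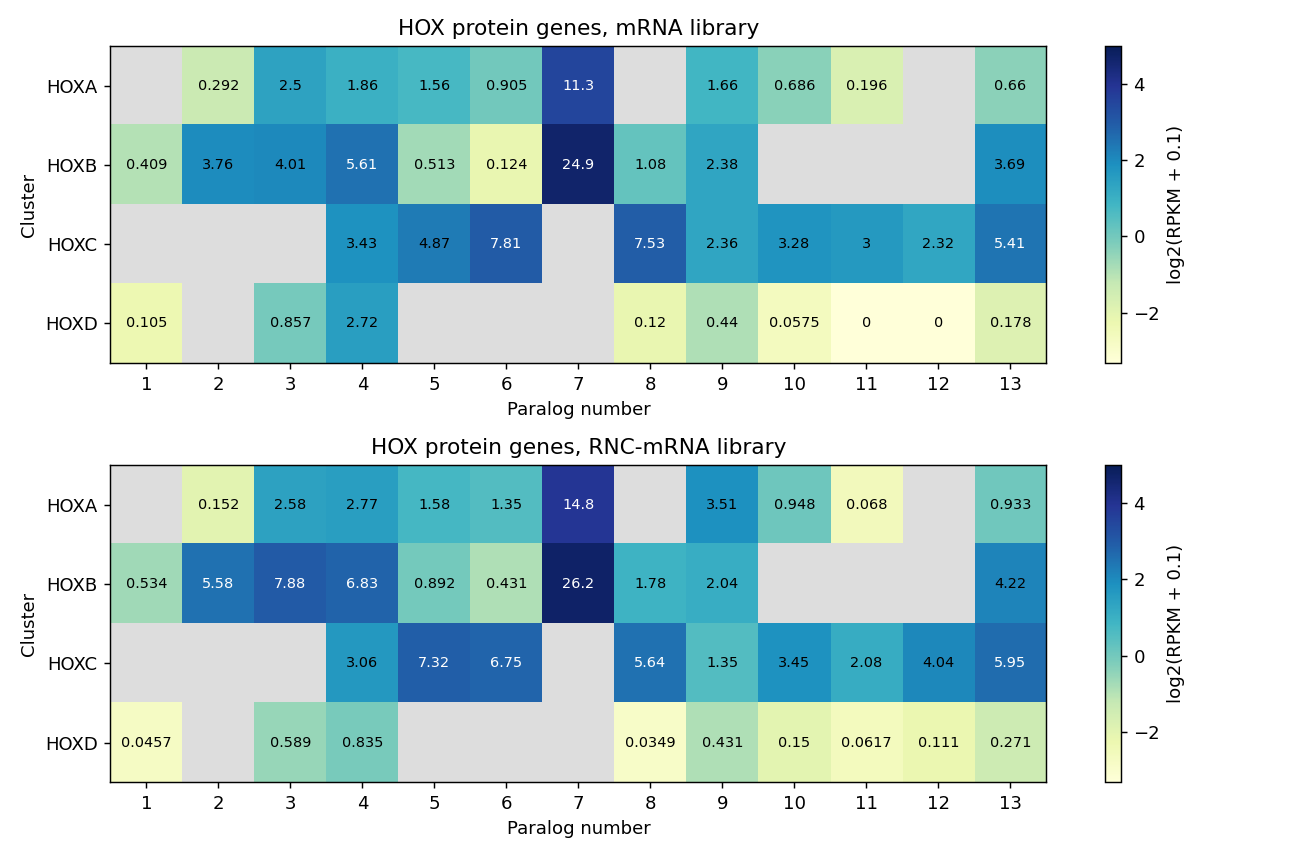
RPKM of 38 of the 39 HOX protein genes by cluster (rows) and paralog number (columns) in the mRNA library (top) and the RNC-mRNA library (bottom). Colour is log2(RPKM + 0.1), numbers are RPKM and grey squares are paralogs that do not exist or are not shown. HOXB7 is the darkest square in both libraries, at 24.9 and 26.2 RPKM, and the HOXD row is pale.

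HOXB7 led the family. It measured 24.9 RPKM in mRNA and 26.2 RPKM in RNC-mRNA, which is 20.4% and 18.8% of all HOX protein mRNA. Its rank among all 23709 records was 3184 and 3079. Its paralog HOXA7 followed with 11.3 and 14.8 RPKM, so paralog group 7 held the highest sum of any group, 36.2 and 41.0 RPKM. The trunk genes HOXC6 (7.81 and 6.75 RPKM) and HOXC8 (7.53 and 5.64 RPKM) led the C cluster in mRNA, while in RNC-mRNA HOXC5 was highest at 7.32 RPKM. HOXC6 held 19.5% and 17.0% of its cluster, whereas HOXB7 held 53.6% and 46.5% of the B cluster.

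Tail-end genes were present at low levels. HOXC13, which drives hair keratin genes, had 5.41 and 5.95 RPKM, and HOXB13, known from prostate and distal colon, had 3.69 and 4.22 RPKM. HOXA13, a hindgut and limb gene, stayed under 1 RPKM at 0.660 and 0.933. HOXD13, a digit patterning gene, had 0.178 and 0.271 RPKM. Paralog groups 9 to 13 summed to 26.3 and 29.6 RPKM over 16 genes, groups 4 to 8 to 74.3 and 80.3 RPKM over 15, and groups 1 to 3 to 21.4 and 29.9 RPKM over 8.

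The 15 protein genes under 1 RPKM on average were HOXA2, HOXA10, HOXA11, HOXA13, HOXB1, HOXB5, HOXB6 and all HOXD genes but HOXD4. The highest mean among members under 1 RPKM was 0.817 RPKM, in HOXA10, and the lowest among expressed members was 1.13 RPKM, in HOXA6. HOXD11 and HOXD12 were listed at 0 in the mRNA library and had as few as 1 read each in the RNC-mRNA library, so no fold is given. A count of 0 allows up to 3 reads. No protein gene was at 0 in both libraries.

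The relative ratio of a gene is log2((RNC-mRNA + 0.1) / (mRNA + 0.1)) minus the median of the 13402 expressed genes, so 0 is the median gene and 1 or -1 is 2-fold from it. This scale understates the ratio of weak genes. Of the 29 expressed HOX members, 26 lay within 2-fold of the median. HOXA9 and HOXB-AS3 were at least 2-fold above, against 1.37% of all expressed genes, and HOXD4 was at least 2-fold below, against 11.8%. HOXD4 passed the filter through the mRNA library alone, which favours a low ratio. Among genes of 1 to 10 mean RPKM, the range that holds 21 of the 24 expressed HOX protein genes, the shares were 1.91% above and 19.9% below. The HOX protein genes had a median of 0.20 (order-statistic interval over genes -0.12 to 0.59), with 17 above the median gene and 7 below, where 50% of all expressed genes lie above it by construction. The median of all genes of 1 to 10 RPKM, coding and non-coding together, was -0.18. That of the 11940 expressed coding (NM) records of any level was 0.03, with 6284 above the median gene. By position along the clusters, the median was 0.52 for the 4 expressed genes of paralog groups 1 to 3, 0.22 for the 12 of groups 4 to 8 and 0.14 for the 8 of groups 9 to 13. This order did not hold under every filter: with none on low values the medians were 0.32, 0.42 and 0.44, and with an mRNA level of at least 1 RPKM they were 0.55, 0.14 and 0.17.

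**Figure D2:**
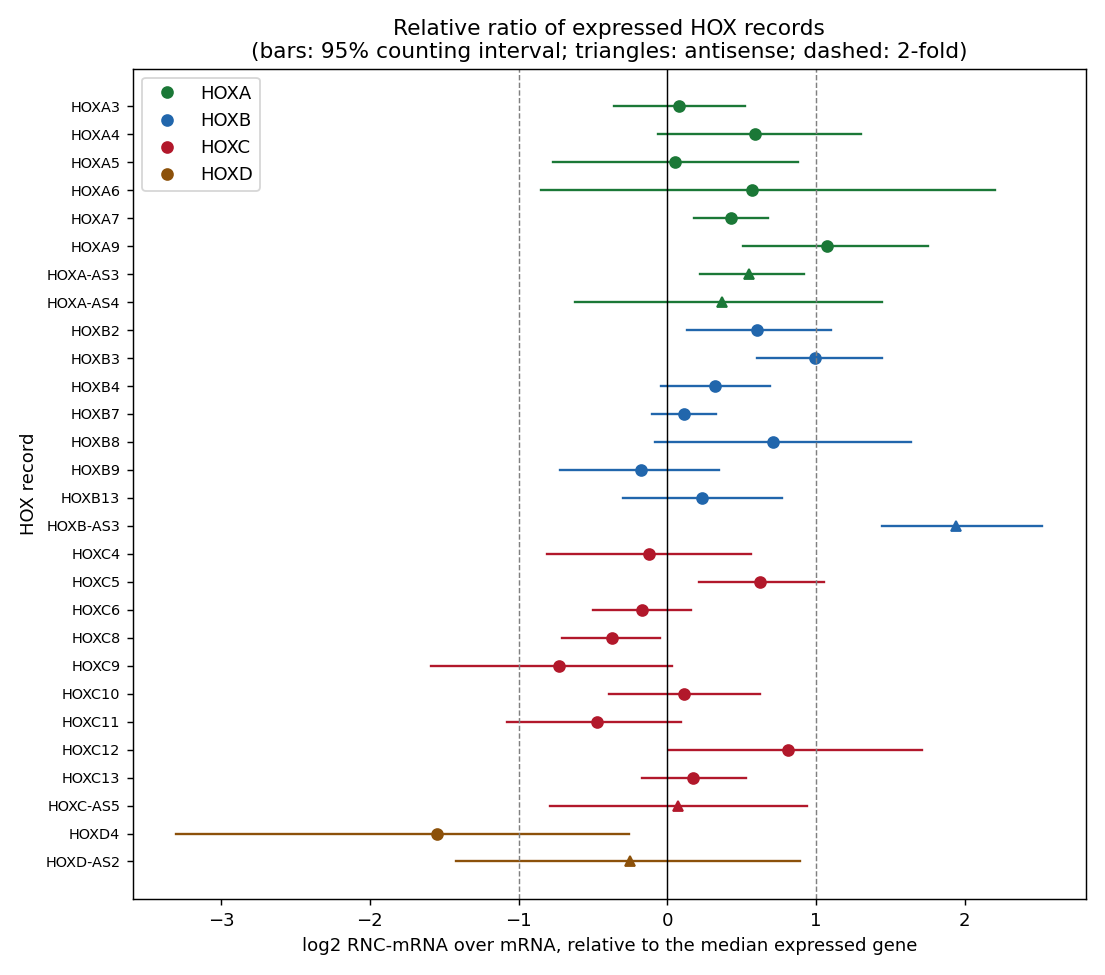
Relative ratio (horizontal axis, log2 of RNC-mRNA over mRNA, 0 is the median expressed gene) of 28 of the 29 expressed HOX records, with 95% counting intervals as bars, circles for protein genes and triangles for antisense records. HOXB-AS3 is the only record shown whose whole interval, 1.44 to 2.52, lies beyond the dashed 2-fold line.

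In the A cluster all 7 expressed protein genes lay above the median gene, with a median of 0.45. HOXA9, a blood progenitor and leukaemia gene, was highest: it measured 1.66 RPKM in mRNA and 3.51 RPKM in RNC-mRNA, 2.10-fold above the median gene (1.07, interval 0.51 to 1.75). Its interval spans the 2-fold line, and at a pseudocount of 1 RPKM its ratio was 0.79. In the GENCODE basic set the HOXA9 record shared no exon bases with the other HOX-cluster genes compared. The readthrough record HOXA10-HOXA9 was not matched there, so its overlap with HOXA9 was not measured. HOXA7 (0.43, interval 0.18 to 0.68) had a smaller ratio that rested on more reads, and its interval lay above 0. HOXA4 (1.86 and 2.77 RPKM, 0.59) and HOXA6 (0.57) had intervals that included 0. HOXA6 passed the filter through the RNC-mRNA library, its high side. HOXA3, a thymus and parathyroid patterning gene (2.505 and 2.58 RPKM, 0.08), and HOXA5 (1.57 and 1.58 RPKM, 0.05) were at the median.

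In the B cluster 6 of 7 expressed protein genes lay above the median gene, with a median of 0.32. The hindbrain gene HOXB3 was highest with 4.01 and 7.88 RPKM (0.99, interval 0.60 to 1.44), just short of 2-fold. It reached 1.01 with a pseudocount of 0.01 RPKM, so its side of the 2-fold line depends on that choice. Of its bases, 10.6% lie opposite exons of the antisense genes HOXB-AS1 and HOXB-AS3. Its neighbour HOXB2 had 3.76 and 5.58 RPKM (0.60, interval 0.13 to 1.10). HOXB4, which expands blood stem cells, had 5.61 and 6.83 RPKM (0.32). HOXB8, the miR-196 partner shown above, had 1.08 and 1.78 RPKM (0.71), but its interval of -0.08 to 1.64 included 0. The most abundant member, HOXB7, was close to the median (0.11, interval -0.10 to 0.33), as were HOXB13 (0.23) and HOXB9 (2.38 and 2.04 RPKM, -0.18).

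In the C cluster the ratios went both ways, 4 above and 5 below, with a median of -0.12. HOXC8 was lower in the RNC-mRNA library (-0.37, interval -0.71 to -0.05), and the intervals of HOXC9 (2.36 and 1.35 RPKM, -0.73) and HOXC11 (3.004 and 2.08 RPKM, -0.47) reached just past 0. HOXC12 was on the other side with 2.32 and 4.04 RPKM (0.81, interval 0.01 to 1.71). HOXC10 (0.11) and HOXC13 (0.17) were near the median.

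HOXC4, HOXC5 and HOXC6, which share exons, did not share 1 ratio. HOXC5 measured 4.87 RPKM in mRNA and 7.32 RPKM in RNC-mRNA (0.62, interval 0.21 to 1.05), so it was higher in the RNC-mRNA library. HOXC6 had 7.81 and 6.75 RPKM (-0.17, interval -0.50 to 0.16) and HOXC4 had 3.43 and 3.06 RPKM (-0.12, interval -0.81 to 0.56). The intervals of HOXC5 and HOXC6 did not overlap, while that of HOXC4 overlapped both. HOXC5 is the only HOX protein gene paired with a non-coding (NR) record in the table, and whether reads of its coding mRNA count towards this value is unknown. The part of shared exon reads in these ratios was not tested.

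In the D cluster HOXD4 was the only expressed protein gene, and it passed the filter through the mRNA library, its high side. It measured 2.72 RPKM in mRNA and 0.835 RPKM in RNC-mRNA, 2.94-fold below the median gene (-1.55, interval -3.30 to -0.26, on at least 17 and 6 reads). Its paralogs HOXA4, HOXB4 and HOXC4 lay between -0.12 and 0.59. With a pseudocount of 1 RPKM its ratio was -0.99. The other HOXD genes had at most 0.857 RPKM in the mRNA library, that of HOXD3, and 0.589 RPKM in the RNC-mRNA library.

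**Figure D3:**
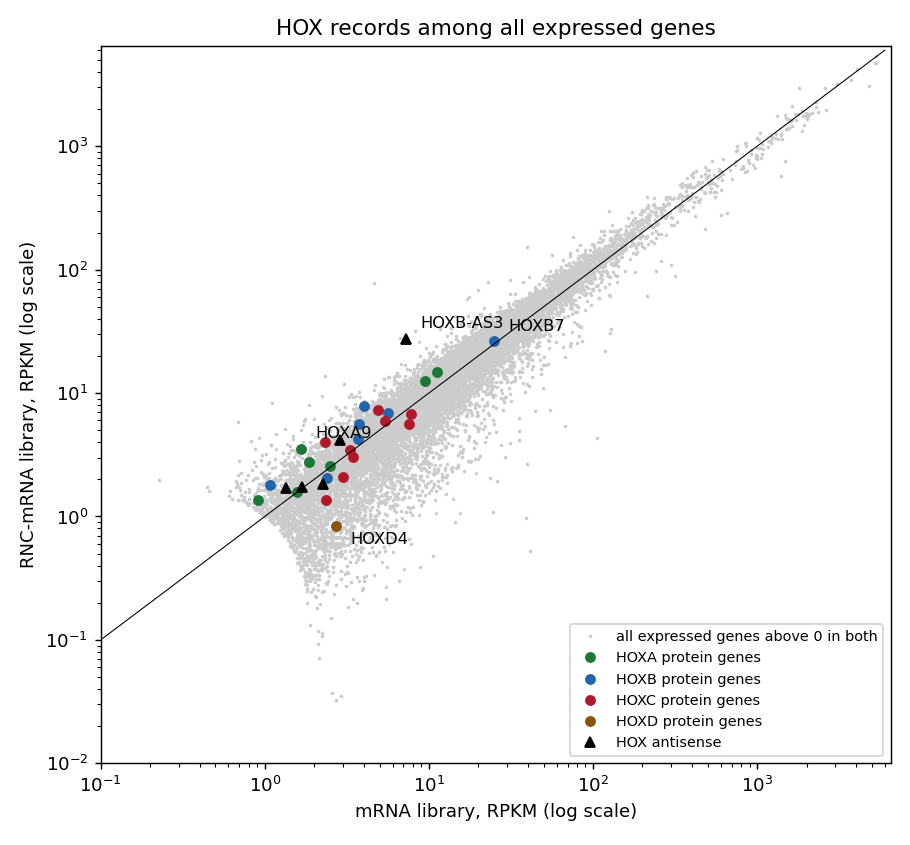
RPKM in the mRNA library (horizontal, log scale) against the RNC-mRNA library (vertical, log scale) for expressed genes (grey), HOX protein genes (circles by cluster) and HOX antisense records (triangles), with the line of equal RPKM. HOXB-AS3 lies well above the line at 7.21 and 27.3 RPKM and HOXD4 below it at 2.72 and 0.835 RPKM.

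The antisense records were led by HOXB-AS3, a long non-coding RNA that has been reported to encode a short peptide. It measured 7.21 RPKM in mRNA and 27.3 RPKM in RNC-mRNA, 3.85-fold above the median gene (1.94, interval 1.44 to 2.52, on at least 37 and 161 reads). Its rank moved from 7992 to 2978 of 23709 records, and in the RNC-mRNA library its level exceeded that of HOXB7. HOXB-AS3 runs opposite HOXB5 and HOXB6. In GENCODE, 31.7% of the bases of its record lie in HOXB6 exons and none in HOXB5 exons. No strand-preserving step is named in the labels, so sense and antisense reads of those bases cannot be told apart. HOXB6 had 0.124 and 0.431 RPKM over its own record and HOXB5 had 0.513 and 0.892 RPKM, both far below HOXB-AS3. Of the HOXB6 bases, 17% lie in HOXB-AS3 exons, and how reads of shared bases were counted is not given. The low HOXB6 value therefore does not show how many sense reads there were.

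The other expressed HOX antisense records lay within 2-fold of the median gene. HOXA-AS3 had 2.88 and 4.16 RPKM (0.55, interval 0.22 to 0.92). Of its bases, 37.8% lie in HOXA7 exons, and 74.7% of HOXA7 bases lie in HOXA-AS3 exons. How far the ratios of HOXA-AS3 and HOXA7 rest on the same reads was not tested. HOXA-AS4, now named HOXA10-AS, had 1.34 and 1.71 RPKM (0.37), and 52.4% of its bases lie in HOXA10 exons. HOXC-AS5, now HOXC13-AS, had 1.69 and 1.73 RPKM (0.07), with 12.2% of its bases in HOXC13 exons. HOXD-AS2, which shares no exon bases with a HOX gene, had 2.25 and 1.83 RPKM (-0.25). The intervals of these last 3 records included 0.

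The remaining HOX symbols were weak. HOXD-AS1, now HAGLR, had 0.627 and 0.261 RPKM, with an interval of -2.41 to -0.13. HOXA11-AS had 0.201 and 0.0582 RPKM, on as few as 3 reads and 1 read. The readthrough HOXA10-HOXA9 had as few as 1 read in each library, and HOXB-AS5 was listed at 0 in both.

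Antisense RNAs named for genes outside the HOX clusters lay lower. Of 406 such records (symbols ending in -AS1, -AS2 or -AS3), 145 were expressed, and their median relative ratio was -0.69 (interval over records -1.02 to -0.51). Among them 63 records, or 43.4%, were at least 2-fold below the median gene and 1 was at least 2-fold above (0.69%). The 5 expressed HOX antisense records had a median of 0.37 (interval -0.25 to 1.94, their full range), with 0 at least 2-fold below and 1 above. All but HOXD-AS2 share bases with exons of HOX protein genes. Outside these 5, the weak HOXD-AS1 and HOXA11-AS were at -0.97 (interval -2.41 to -0.13) and -0.89 (interval -7.46 to 1.89). The HOXA11-AS value rests on as few as 3 reads and 1 read, so its side of the median gene is not settled. HOTAIRM1, a HOXA antisense RNA that the symbol rule leaves out, was at -1.45. All 1462 expressed non-coding (NR) records had a median of -0.47, with 1.71% at least 2-fold above and 35.3% below. No test of this difference was made, since 1 library stands on each side.

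Of 13 cluster genes that carry other names, 2 were expressed, both non-coding. Both were at least 2-fold below the median gene, against 35.3% of all expressed NR records. FLJ12825 passed the filter on mean RPKM through the mRNA library alone, which favours a low ratio. HOTAIRM1, an antisense RNA of the HOXA cluster that acts in myeloid cells, had 3.08 and 1.04 RPKM (-1.45, interval -2.63 to -0.53). FLJ12825, a long non-coding RNA next to HOXC4, had 2.18 and 0.366 RPKM (-2.25, interval -3.41 to -1.75). HOTAIR, the HOXC antisense RNA known for recruiting Polycomb proteins, had 0.438 and 0.457 RPKM, and HOTTIP, at the HOXA13 end, had 0.221 and 0.0719 RPKM. The homeobox genes at the cluster ends were silent or nearly so: EVX2 was listed at 0 in both libraries and EVX1 had as few as 1 read in each.

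**Figure D4:**
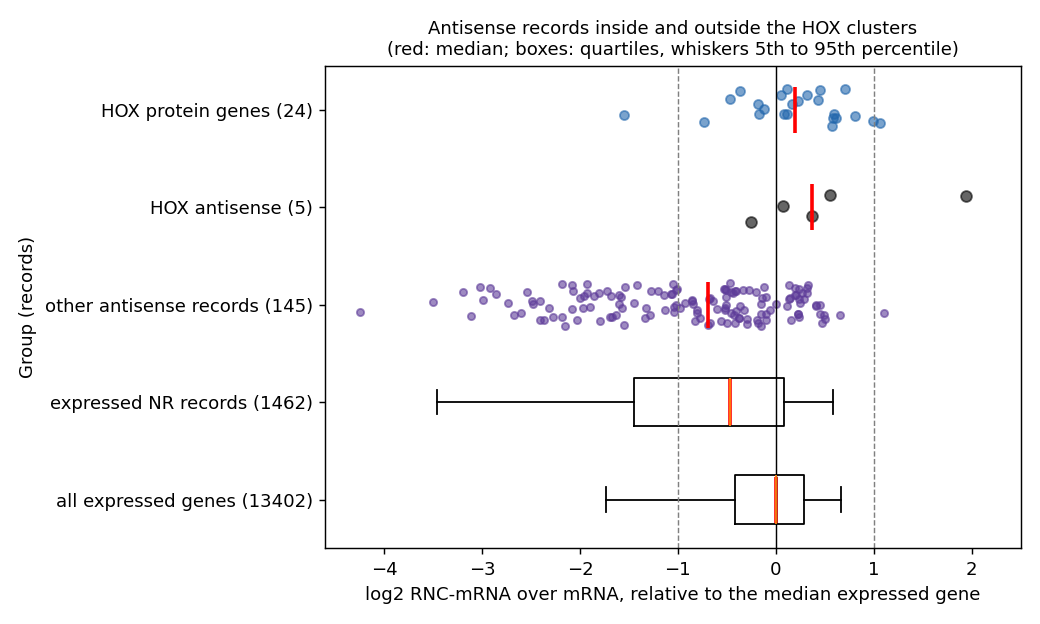
Relative ratio (horizontal axis, log2) of all expressed genes and expressed NR records (boxes), and of single antisense records and HOX protein genes (points), with medians in red. The median is -0.69 for the 145 other antisense records and 0.37 for the 5 HOX antisense records.

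HOX proteins bind DNA with cofactors of the TALE homeodomain class. Of 11 TALE genes listed, which include TGIF1 and TGIF2, 10 were expressed, 5 above and 5 below the median gene. PBX2, the most abundant of them, had 66.9 and 71.7 RPKM (0.14), more than any HOX gene, and MEIS2 had 39.5 and 24.9 RPKM (-0.63). PBX4 was lowest at 2.10 and 0.574 RPKM (-1.67, interval -2.96 to -0.82). It was the only listed TALE gene 2-fold from the median, against 11.8% of all expressed genes at least 2-fold below. It too passed the filter through the mRNA library, its high side.

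ParaHox and CDX genes, the nearest relatives of HOX, were represented by the intestinal factors. CDX2 had 79.8 and 87.8 RPKM (0.18, interval 0.09 to 0.27) and CDX1 had 35.0 and 40.2 RPKM (0.24). PDX1, of pancreas and duodenum, had 2.10 and 2.46 RPKM (0.26). CDX4 and GSX1 were listed at 0 in both libraries, and GSX2 had 0 RPKM and 0.0744 RPKM.

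Regulators that keep HOX genes on or off were expressed throughout. The list of MLL-type activators includes histone methyltransferases and also demethylases. Its genes were expressed in 13 of 13 cases, with 5 above and 8 below the median gene (median -0.35), and 0 past 2-fold. The methyltransferases MLL (13.97 and 9.18 RPKM, -0.56), MLL2 (-0.63), MLL3 (-0.49) and MLL4 (-0.73) all lay below, with intervals under 0. On the same list DPY30 (47.1 and 50.3 RPKM, 0.13) and MEN1 (32.9 and 33.7 RPKM, 0.07) were near the median, and the demethylase KDM6A was highest (0.78). Polycomb repressors, which place and read silencing marks, were expressed in 19 of 19 cases, 11 above and 8 below (median 0.02), again with 0 past 2-fold. Among all expressed genes 1.37% were at least 2-fold above and 11.8% below, and 19.9% were below among genes of 1 to 10 mean RPKM. The median levels of the MLL and Polycomb lists were higher, 11.6 and 17.7 RPKM. A count of 0 in lists this short is therefore not read as a trait of these regulators. RBBP7 had 84.4 and 76.1 RPKM (-0.11) and PCGF2 had 35.5 and 41.0 RPKM (0.24). BMI1 was highest at 15.6 and 25.5 RPKM (0.74), and EZH1 was lowest at 8.44 and 4.35 RPKM (-0.90), below its paralog EZH2 (21.0 and 15.1 RPKM, -0.43).

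**Figure D5:**
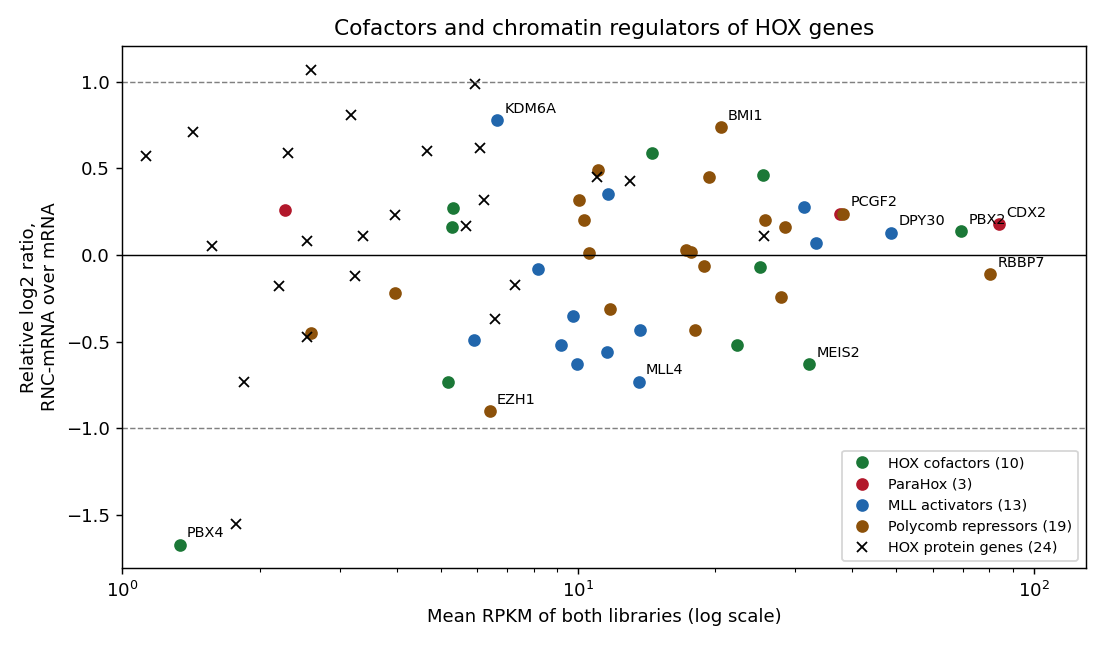
Mean RPKM of both libraries (horizontal, log scale) against relative ratio (vertical, log2) for expressed cofactors, ParaHox genes, MLL-type activators and Polycomb repressors (circles), with HOX protein genes as crosses. PBX4 at -1.67 is the only circle beyond the dashed 2-fold lines.

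The epithelial label was met by KRT8, KRT18, KRT19, EPCAM, CDH1 and VIL1, all above 100 RPKM in both libraries, and by CDX2 and CDH17 at lower levels. LGALS4 (1.865 and 0.776 RPKM, -1.13) and KRT20 (0.977 and 0.05 RPKM) were low. The 10 epithelial markers summed to 4210 and 4244 RPKM. The 8 fibroblast markers summed to 84.0 and 60.5 RPKM, 7 of them expressed, among them COL1A1 (46.8 and 26.1 RPKM) and PDGFRA (1.42 and 3.72 RPKM, 1.37), while THY1 was at 0 in the mRNA library. The 5 endothelial markers summed to 4.94 and 2.07 RPKM, mostly PECAM1 (4.12 and 1.58 RPKM, -1.29), with TEK at 0. The 7 blood markers summed to 17.7 and 17.8 RPKM, mostly CD68 (12.97 and 12.5 RPKM) and CD14 (3.40 and 3.78 RPKM), with HBB at 0. Their part in the HOX values was not tested. In bulk RNA a gene made by fewer cells cannot be told apart from a gene made less in each cell.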

How the data were processed

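Caco-2 poly(A) RNA was profiled in 2 libraries, mRNA and RNC-mRNA. The authors deposited RPKM values for 23709 gene symbols, each paired with 1 RefSeq record, per the file headers; the build was hg19, per the submitters' processing notes. The aligner, the counter and the treatment of reads that fit several genes are not given in the sources used here. The labels name 12 PCR cycles and no molecular identifiers, so PCR copies count as reads. Library totals were recovered from the steps of low RPKM values, as the total that gave whole reads for the greatest number of genes (2646 of 15524 in mRNA and 2324 of 14276 in RNC-mRNA, against 613 and 658 at the next best total). Each gene's fewest whole reads that explain both values, with a relative error of 2e-07 beyond rounding to 7 digits, gave the counting intervals. The recovery of totals and of fewest reads was tested on simulated data, as were 2-fold calls. The genes changed in that simulation were not under 10 RPKM, and the coverage of the counting intervals was not tested. Relative ratios used a pseudocount of 0.1 RPKM and the median of genes with a mean of at least 1 RPKM; 2-fold is a rule of size and not a test. With 1 library a group, no count model was fitted.

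Genes were named by rule: every expressed HOX member and every antisense symbol, and from each list up to 2 members of highest mean RPKM with the highest and lowest ratio. MLL, MLL2, MLL3, EZH2, CDX4, GSX1, GSX2 and the single markers fall outside this rule and were chosen after their values were seen; cluster genes with other symbols were all eligible. The values of 2 genes are not reported here. The members and lists were chosen with earlier results of these data known. LOC100130872 was dropped from the list of cluster genes, because RefSeq places it on another chromosome. No hg19 annotation was used here; exon overlaps come from the GENCODE release 29 basic set on GRCh38 (46 of 48 members matched), promoters (25 members matched) and microRNAs from RefSeq on GRCh38.p14. Alternatives were pseudocounts of 0.01 and 1 RPKM, 4 other filters on RPKM, 3 other centres, leaving out genes at 0 and a minimum of 10 reads in each library. Computation used Python 3.11.15, numpy 2.4.6, pandas 2.3.3, scipy 1.17.1 and matplotlib 3.10.9.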

Additional observations from a re-analysis of the deposited data

How the results depend on the processing

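No paired analysis was possible because each group has 1 library. A pseudocount of 1 RPKM left 102 of 13402 expressed genes past 2-fold upward and 1046 downward (184 and 1576 in the report). Among the 29 expressed HOX members it left 1 above (HOXB-AS3) and 0 below. With a mean of at least 5 RPKM the genes past 2-fold were 62 and 544 of 9162, and 10 HOX members were expressed, 1 above and 0 below. With no filter they were 599 and 3040 of 19255 genes, and of 47 HOX members 5 were above and 1 below. The 5 include HOXB6, on as few as 1 and 4 reads, and HOXD12, on as few as 0 and 1. The HOXD median, which rests on HOXD4 alone in the report, turned to 0.11 because the weak HOXD genes then enter it. With at least 10 reads in each library 0 members were below, since the fewest reads that explain HOXD4 in RNC-mRNA are 6. This is a lower bound, so HOXD4 may hold more reads and pass this filter. Across the 11 alternatives HOXB-AS3 ranged from 1.82 to 2.05, the HOX protein median from 0.16 to 0.42, the HOXA median from 0.36 to 0.55, the HOXB median from 0.24 to 0.58 and the HOXC median from -0.16 to -0.02. The antisense median ranged from 0.17 to 1.86, the latter being HOXB-AS3 alone at a mean of at least 5 RPKM. Of 297 values of single members, 291 kept their side of the 2-fold line, 4 of HOXB3 crossed to it and 2 fell short (HOXA9 and HOXD4 at a pseudocount of 1 RPKM). Depth limits the weak members most: the median expressed member rests on at least 58 and 75 reads.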

Other observations

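Over the 18 pairs of protein genes next to each other in paralog order with both expressed, the median absolute difference of their relative ratios was 0.59, and the greatest was 1.28, between HOXC11 (-0.47) and HOXC12 (0.81). The counting intervals were apart for 1 pair, HOXC5 and HOXC6, and overlapped for the other pairs; no test of the differences themselves was made. Spearman's rho of mRNA and RNC-mRNA RPKM over the 39 protein genes was 0.95, a description across genes that share both libraries. Single genes changed places: HOXC5 and HOXB3 lay below HOXC6 and HOXC8 in mRNA and above both in RNC-mRNA. Of the 8 HOX genes with an exact miR-196 seed match, 6 were expressed, and their ratios ran from -0.37 (HOXC8) to 1.07 (HOXA9), with HOXA5, HOXA7, HOXB7 and HOXB13 between 0.05 and 0.43.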
